A study of Mus musculus with 6 samples.

Results

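The genes described here encode the machinery with which the endoplasmic reticulum takes up, cuts, glycosylates, folds and disposes of secreted proteins. They were chosen by gene symbol from 6 groups of known function: targeting and translocation, signal peptidase, oligosaccharyl transferase, chaperones, disulfide enzymes and degradation. The rule of choice used no values, but earlier results of these data were known when the choice was made. Of the 46 genes listed, 44 were measured, among 19505 genes in all. Manf, a secreted neuroprotective factor of the stressed endoplasmic reticulum, and Pdia4, a disulfide isomerase, were not analysed here. In the study, salivary glands of mouse embryos at a stage written as T13 were kept in culture for 72 hours, and their transcripts were measured on 6 Affymetrix arrays. A group of 3 arrays was made from glands that received TGF-β1 (numbered 1 to 3 as TGF-β1 1, 2 and 3) and a group of 3 from glands that received nothing (controls 1 to 3). TGF-β1 is a secreted growth factor that signals through receptor kinases and Smad proteins. The sources used here give neither strain, gland type nor dose, and they name no allele or other agent. Whether replicates stem from separate cultures or animals is not stated, and each p-value measures only the spread between these 6 samples, possibly a technical one.

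A protein bound for secretion is recognised by the signal recognition particle as it leaves the ribosome and is threaded into the endoplasmic reticulum through the Sec61 channel. Signal peptidase removes its signal sequence, oligosaccharyl transferase attaches sugar chains, and chaperones and disulfide isomerases fold it. Proteins that fail to fold are passed back to the cytosol for degradation. Secretory cells such as those of salivary acini hold much of this machinery, and when folding falls behind, the sensors Ire1, Perk and Atf6 raise its transcription, the unfolded protein response.

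All values are log2 expression values, 1 probe set (the set of probes designed for one transcript) per gene, and a difference is the TGF-β1 group minus the controls. Control 3 stood apart: it correlated with the other arrays at Pearson's r of 0.550 to 0.601 over all genes, whereas TGF-β1 1 and 2 and controls 1 and 2 correlated at 0.974 to 0.990 with each other. TGF-β1 3 correlated at 0.948 to 0.953 with those 4. The values of control 3 were also less spread out, with an interquartile range of 2.05, against 3.17 to 3.26 in the other arrays. Of 16 genes that every cell uses, control 3 had the lowest value of the 6 arrays in 16, with a median of -3.72 relative to the mean of controls 1 and 2. The groups were therefore compared with limma after estimating a reliability weight for each array, which came to 0.398 for TGF-β1 3, 4.29 and 2.33 for TGF-β1 1 and 2, 0.0338 for control 3, and 1.65 and 4.52 for controls 1 and 2. Genes with an adjusted p under 0.05 in that fit are said to have passed. A difference named without a fit is from that weighted fit. The main results are set beside a fit of TGF-β1 1 and 2 against controls 1 and 2 without weights, called the fit of 4 arrays, and beside the unweighted fit of all 6 arrays.

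Most of the machinery did not pass in either direction. Of the 44 genes, 1 rose (Sec11c), 1 fell (Dnajb9) and 42 did not pass, so that 4.55% were called, against 6.88% of all genes (3.45% higher, 3.44% lower). The fit of 4 arrays called the same 2 genes in the same directions, against 2.59% of all genes. Without weights the 6 arrays gave 0 passing genes among all genes (0%), with 389 genes and 1 of the 44 at an unadjusted p under 0.05, against 3997 and 11 with weights. The median difference over the 44 genes was 0.07, against 0.01 over all genes, and 29 of them had a difference above 0. In the unweighted fit 13 of the 44 had the opposite sign, and in the fit of 4 arrays 2. For 41 of the 44 (93.2%) the 95% interval of the difference lay within 1 log2 unit of 0, a 2-fold change, against 90.4% of all genes, the exceptions being Sec11c, Dnajb9 and Edem2. In the fit of 4 arrays this held for 40 of the 44, with Derl3 as a further exception. The intervals treat the weights as known and are therefore too narrow.

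**Figure D1:**
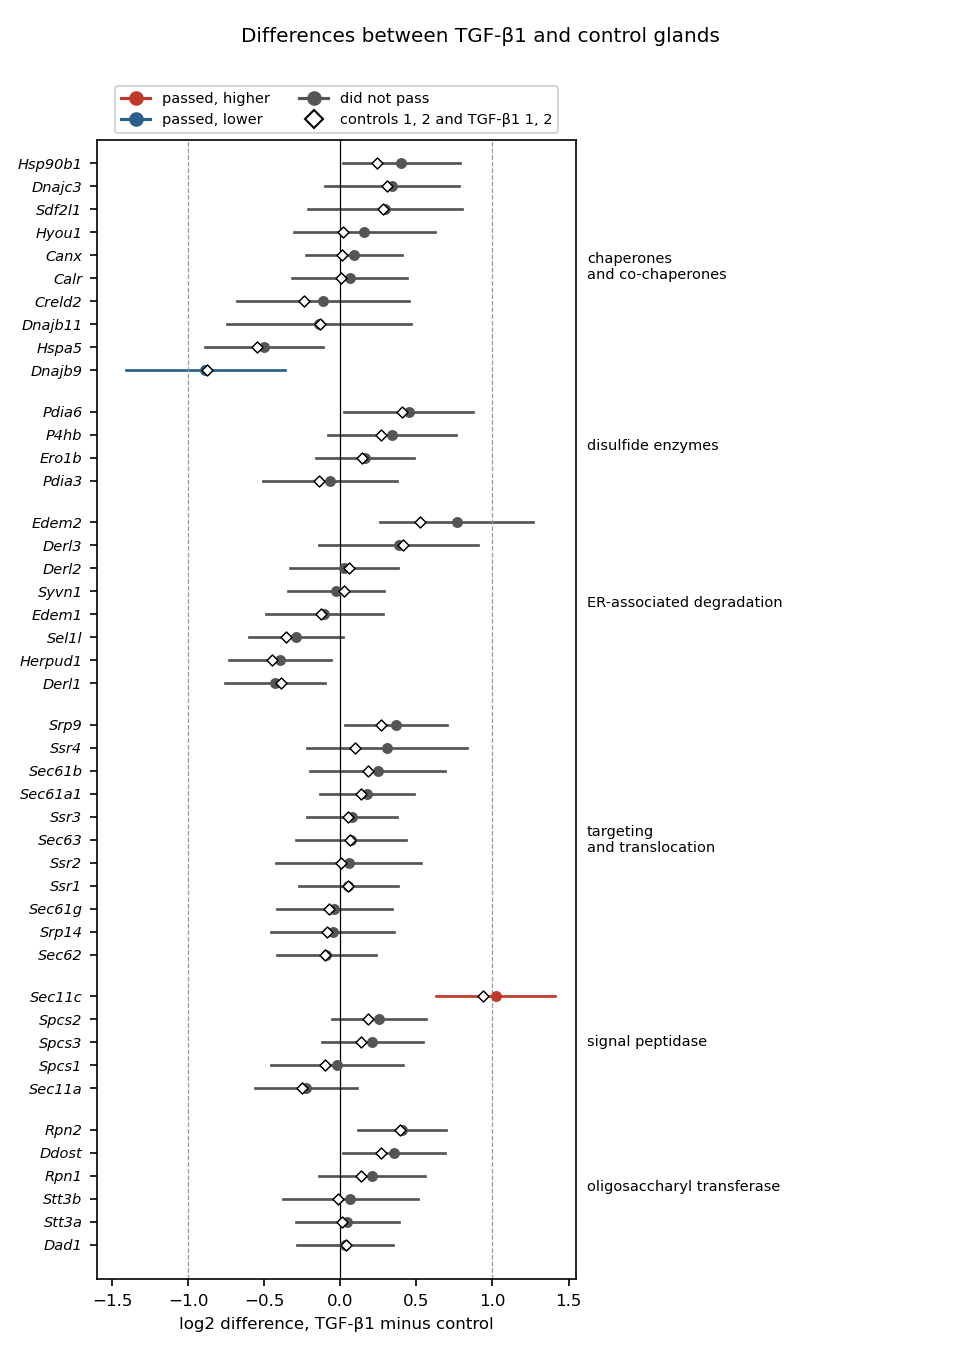
Log2 difference of each of the 44 genes between TGF-β1 and control glands, grouped by role, with circles and bars for the array-weighted fit and its 95% interval and diamonds for the fit of 4 arrays. The 2 genes that passed, Sec11c at 1.02 and Dnajb9 at -0.89, lie at the ends of the range, and most other intervals cover 0 and stay between the dashed lines at 1 log2 unit either side of 0.

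Many of these genes are known targets of the unfolded protein response, whose promoter elements were looked for by their letters. The letters searched, on both strands of the 300 bases from 250 before to 50 after the gene start (RefSeq, GRCm38.p6), were those of the endoplasmic reticulum stress elements ERSE (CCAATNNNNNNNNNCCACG) and ERSE-II (ATTGGNCCACG), the element UPRE (TGACGTGG), and CCACG alone, which the first 2 contain and the third contains on its other strand. Of the 39 genes with such a window, 10 held ERSE (25.6%), against 37 of 27025 genes (0.137%). ERSE-II stood in 2 of the 39 (5.13%), Dnajb11 and Herpud1, against 12 of 27025 (0.0444%). UPRE in exactly the letters given stood in 0 of the 39, against 193 of 27025 (0.714%). Forms of it that differ by a letter were not searched, so this does not show that the 39 lack the element. CCACG alone was present in 32 of the 39 (82.1%) and in 35.5% of all genes. Hsp90b1 held 2 ERSE matches, 212 and 107 bases before the start, and Hspa5 held 1, 65 bases before it. Sec11c, Hyou1, Derl1, Sec61a1, Ssr2, Spcs3 and Manf are not among the 39.

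The promoter of Hspa5 is printed first as the best known ERSE promoter and that of Dnajb9 second because it is the gene of the set that fell. Both are whole windows on the gene's own strand, chr2:34771840-34772139 (plus strand) and chr12:44210019-44210318 (minus strand), with the ERSE match of Hspa5 and both CCACG matches of Dnajb9 in capitals. A match is a description of the letters and not a site shown to be bound.
Hspa5: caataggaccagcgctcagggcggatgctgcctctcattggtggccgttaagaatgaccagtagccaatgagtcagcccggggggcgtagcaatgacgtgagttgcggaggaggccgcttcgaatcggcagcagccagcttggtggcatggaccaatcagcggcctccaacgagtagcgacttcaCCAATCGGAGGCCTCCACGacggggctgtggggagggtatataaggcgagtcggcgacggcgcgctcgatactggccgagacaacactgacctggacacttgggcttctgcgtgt
Dnajb9: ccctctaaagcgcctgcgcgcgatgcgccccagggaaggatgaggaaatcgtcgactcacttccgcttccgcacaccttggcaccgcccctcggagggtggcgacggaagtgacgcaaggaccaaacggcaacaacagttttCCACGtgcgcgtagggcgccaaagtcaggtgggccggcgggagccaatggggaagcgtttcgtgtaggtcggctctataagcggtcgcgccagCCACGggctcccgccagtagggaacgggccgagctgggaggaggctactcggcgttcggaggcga

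The other matches are printed with 20 bases on each side, on the gene's strand, with the matched letters in capitals. Where the match lies on the opposite strand the capitals read as its reverse complement, starting with CGTGG. They show how far the variable letters inside the element differ between genes. For ERSE these were, for the chaperones and lectins Hsp90b1 (chr10:86705618-86705676, minus; the match farther from the start), Dnajc3 (chr14:118937807-118937865, plus), Creld2 (chr15:88819500-88819558, plus), Calr (chr8:84847055-84847113, minus) and Canx (chr11:50325780-50325838, minus):
Hsp90b1: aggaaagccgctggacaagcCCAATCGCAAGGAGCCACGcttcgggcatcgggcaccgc
Dnajc3: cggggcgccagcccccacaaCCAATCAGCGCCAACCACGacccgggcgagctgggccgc
Creld2: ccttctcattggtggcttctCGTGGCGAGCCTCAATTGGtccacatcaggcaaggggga
Calr: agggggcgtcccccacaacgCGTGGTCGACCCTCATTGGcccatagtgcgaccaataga
Canx: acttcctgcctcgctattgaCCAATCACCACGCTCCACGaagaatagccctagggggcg
For the disulfide enzymes Pdia6 (chr12:17266471-17266529, plus) and Ero1b (chr13:12565662-12565720, plus) and the degradation genes Syvn1 (chr19:6046512-6046570, plus) and Derl3 (chr10:75893222-75893280, plus) they were:
Pdia6: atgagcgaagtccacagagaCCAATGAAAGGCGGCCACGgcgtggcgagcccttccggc
Ero1b: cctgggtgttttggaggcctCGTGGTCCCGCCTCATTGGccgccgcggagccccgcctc
Syvn1: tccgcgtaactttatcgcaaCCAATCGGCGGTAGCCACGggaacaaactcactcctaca
Derl3: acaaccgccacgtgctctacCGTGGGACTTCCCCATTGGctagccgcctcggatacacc
The ERSE-II matches were those of Herpud1 (chr8:94386357-94386407, plus), 52 bases before the start, and Dnajb11 (chr16:22857832-22857882, plus), just after it:
Herpud1: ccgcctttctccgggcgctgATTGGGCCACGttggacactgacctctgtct
Dnajb11: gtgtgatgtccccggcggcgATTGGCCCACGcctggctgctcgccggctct
None of these 12 genes with ERSE or ERSE-II passed. Their differences ran between -0.50 (Hspa5) and 0.45 (Pdia6) with a median of 0.07, and the 26 measured genes whose window held neither had a median of 0.06, with Dnajb9 the 1 that passed.

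Among the genes of targeting and translocation none of 11 passed (1 at an unadjusted p under 0.05, Srp9), and their differences ran between -0.09 and 0.36, with a median of 0.07. Sec61a1, the channel-forming subunit, was at 11.98, 11.75 and 11.73 in TGF-β1 1 to 3 and at 11.77, 11.69 and 11.62 in controls 1 to 3. It moved little on any array, control 3 included, and its difference was 0.17 ± 0.14 (SE, limma adjusted p = 0.558). The small subunits Sec61b and Sec61g differed by 0.25 and -0.04. Sec62 and Sec63, which assist the channel for proteins delivered after their synthesis, differed by -0.09 and 0.07.

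The 4 genes of the translocon-associated protein complex, Ssr1 to Ssr4, differed by 0.05, 0.05, 0.08 and 0.31. Ssr2 was at 12.79, 12.58 and 12.86 in TGF-β1 1 to 3 and at 12.64 and 12.72 in controls 1 and 2, but at 7.07 in control 3, a deviation of -5.62 from the mean of the other controls. That was the largest such deviation of control 3 among the 44 genes. Srp9 and Srp14, partners in the domain of the signal recognition particle that slows translation, differed by 0.36 and -0.05. Srp9 was at 8.19, 7.90 and 8.60 in the TGF-β1 arrays and at 7.82, 7.73 and 7.07 in the controls, without overlap, and did not pass (adjusted p = 0.205).

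Signal peptidase held the gene that rose. Sec11c, one of the paralogous catalytic subunits of the enzyme, was at 10.34, 10.32 and 11.21 in TGF-β1 1 to 3 and at 9.42, 9.36 and 6.65 in controls 1 to 3. Every TGF-β1 array lay above every control, and the gap remained between the arrays that resembled each other: the TGF-β1 arrays 1 and 2 differed by 0.02 and controls 1 and 2 by 0.06. The difference was 1.02 ± 0.18 (SE, 95% interval 0.63 to 1.41, limma adjusted p = 0.0058), and in the fit of 4 arrays 0.94 (adjusted p = 0.0274). The group means were 10.62 ± 0.51 with TGF-β1 and 8.48 ± 1.58 in the controls (SD, n = 3 each), and without weights the difference was 2.14 (adjusted p = 0.776). Leaving out control 3 kept the call (0.99, adjusted p = 0.0277). Leaving out TGF-β1 3 gave 0.95 (adjusted p = 0.0749), TGF-β1 1 gave 1.38 and TGF-β1 2 gave 1.39 (adjusted p = 0.271 and 0.273), and control 1 gave 2.38 and control 2 gave 2.35 (adjusted p = 0.939 and 0.979), none of which passed.

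Sec11a, the other catalytic subunit, did not pass. It was at 11.64, 11.41 and 12.12 in TGF-β1 1 to 3 and at 11.69, 11.87 and 11.23 in controls 1 to 3. The groups overlapped, with a difference of -0.23 ± 0.15 (adjusted p = 0.474); the contrast between the 2 subunits was not tested. Spcs2 and Spcs3, further subunits of the enzyme, differed by 0.25 and 0.21, and Spcs1, an accessory subunit, by -0.02. The arrays hold RNA of whole glands, in which more cells of a type and more RNA per cell cannot be told apart.

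In the weighted fit the 6 genes of oligosaccharyl transferase differed by 0.03 to 0.40, with 5 of the 6 above 0 in the fit of 4 arrays (Stt3b at -0.02), and none passed (2 at an unadjusted p under 0.05, Rpn2 and Ddost). Rpn2, which encodes ribophorin II, was at 9.06, 9.09 and 9.0 in TGF-β1 1 to 3 and at 8.73, 8.64 and 8.80 in controls 1 to 3. It was one of the few genes of the set whose groups were each tight on all arrays and did not overlap. Its difference was 0.40 ± 0.13 (SE, 95% interval 0.11 to 0.69, adjusted p = 0.0984) and it was 0.39 in the fit of 4 arrays (adjusted p = 0.224). Rpn1, ribophorin I, differed by 0.21 and Ddost, a further subunit of the complex, by 0.35. Stt3a and Stt3b, the alternative catalytic subunits, differed by 0.05 and 0.07, and Dad1, a small subunit named for its defence against cell death, by 0.03.

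Of the 10 measured chaperones and co-chaperones 1 fell, 0 rose and 9 did not pass (3 at an unadjusted p under 0.05, Dnajb9, Hspa5 and Hsp90b1), with a median of 0.07. Dnajb9, the co-chaperone ERdj4 that works with BiP and restrains Ire1, was at 9.49, 9.63 and 10.67 in TGF-β1 1 to 3 and at 10.28, 10.61 and 5.53 in controls 1 to 3. TGF-β1 1 and 2 lay below controls 1 and 2, TGF-β1 3 lay above them and control 3 far below every other array, so the groups overlapped. The weighted difference was -0.89 ± 0.24 (SE, 95% interval -1.41 to -0.37, limma adjusted p = 0.0470), and in the fit of 4 arrays it was -0.88 (adjusted p = 0.0488). The group means ran the other way, 9.93 ± 0.64 with TGF-β1 and 8.81 ± 2.84 in the controls (SD, n = 3 each), so that the unweighted difference was 1.13 (adjusted p = 0.776). The call ended with any 1 array left out and the weights estimated anew. The difference was -0.05, -0.12 and -0.63 without TGF-β1 1, 2 and 3, fits in which control 2 had almost no weight. In those without TGF-β1 1 or 2, TGF-β1 3 was no longer weighted down against its partner. The difference was -0.84 without control 3 (adjusted p = 0.0772), and 1.54 and 1.70 without controls 1 and 2.

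Hspa5, which encodes BiP, the Hsp70 chaperone of the endoplasmic reticulum, was at 10.13, 9.79 and 10.88 in TGF-β1 1 to 3 and at 10.40, 10.62 and 10.76 in controls 1 to 3. TGF-β1 1 and 2 were the lowest of the 6 arrays and TGF-β1 3 the highest. Its difference was -0.50 ± 0.18 (SE, 95% interval -0.89 to -0.12, adjusted p = 0.123), and in the fit of 4 arrays -0.55 (adjusted p = 0.172). Hsp90b1, which encodes the Hsp90 paralogue GRP94, differed by 0.40 ± 0.18 (adjusted p = 0.225), by 0.24 in the fit of 4 arrays and by 1.11 without weights.

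Of BiP's other partners, Dnajc3 differed by 0.34, Dnajb11 by -0.14, Sdf2l1, which forms a complex with Dnajb11, by 0.29, and Hyou1, its nucleotide exchange factor, by 0.16. Hyou1 was at 9.16, 8.55 and 9.08 in TGF-β1 1 to 3, at 8.98 and 8.70 in controls 1 and 2 and at 12.13 in control 3, so control 3 was not low for every gene of the set, and without weights Hyou1 differed by -1.01. Calr and Canx, the lectin chaperones calreticulin and calnexin, differed by 0.06 and 0.09, and Creld2, a stress-induced protein of the lumen, by -0.11 (1.10 without weights).

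The 4 measured disulfide enzymes did not pass (1 at an unadjusted p under 0.05, Pdia6), with a median of 0.25. Pdia6, a disulfide isomerase, was at 9.19, 8.92 and 9.92 in TGF-β1 1 to 3 and at 8.52, 8.78 and 5.74 in controls 1 to 3. Its groups did not overlap, and it differed by 0.45 ± 0.19 (adjusted p = 0.213), by 0.41 in the fit of 4 arrays and by 1.67 without weights. P4hb, which encodes protein disulfide isomerase, also a subunit of collagen prolyl 4-hydroxylase, was at 12.39, 12.23 and 12.65 with TGF-β1 and at 12.06, 12.03 and 7.61 in the controls. Its difference was 0.34 (adjusted p = 0.371), 0.26 in the fit of 4 arrays and 1.86 without weights. Pdia3, the isomerase that serves calnexin and calreticulin, differed by -0.07 (1.59 without weights) and Ero1b, an oxidase that recharges the isomerases, by 0.16.

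None of the 8 degradation genes passed (3 at an unadjusted p under 0.05, Edem2, Derl1 and Herpud1), and their differences spread to both sides of 0, with a median of -0.07. Edem2, which trims mannose from misfolded glycoproteins, was at 9.87, 9.02 and 9.89 in TGF-β1 1 to 3 and at 9.12, 8.72 and 8.05 in controls 1 to 3. TGF-β1 2 lay below control 1, and the other TGF-β1 arrays above all controls. The difference was 0.77 ± 0.23 (SE, 95% interval 0.26 to 1.27, adjusted p = 0.0724), and 0.52 in the fit of 4 arrays (adjusted p = 0.422).

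Derl1, a membrane protein of the export channel, was at 9.34, 9.36 and 9.68 with TGF-β1 and at 9.64, 9.83 and 11.70 in the controls, a difference of -0.43 ± 0.15 (adjusted p = 0.123), -0.39 in the fit of 4 arrays and -0.94 without weights. Herpud1, a scaffold of the ubiquitin ligase complex, was at 9.75, 9.74 and 10.16 with TGF-β1 and at 10.23, 10.16 and 7.99 in the controls, a difference of -0.40 ± 0.15 (adjusted p = 0.162), -0.45 in the fit of 4 arrays and 0.43 without weights. In both genes TGF-β1 1 and 2 lay below controls 1 and 2, while control 3 was the highest array for Derl1 and the lowest for Herpud1. Syvn1, the ubiquitin ligase Hrd1, and Sel1l, its partner, differed by -0.03 and -0.29. Derl2 and Derl3, relatives of Derl1, differed by 0.02 and 0.38, and Edem1, a relative of Edem2, by -0.11.

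**Figure D2:**
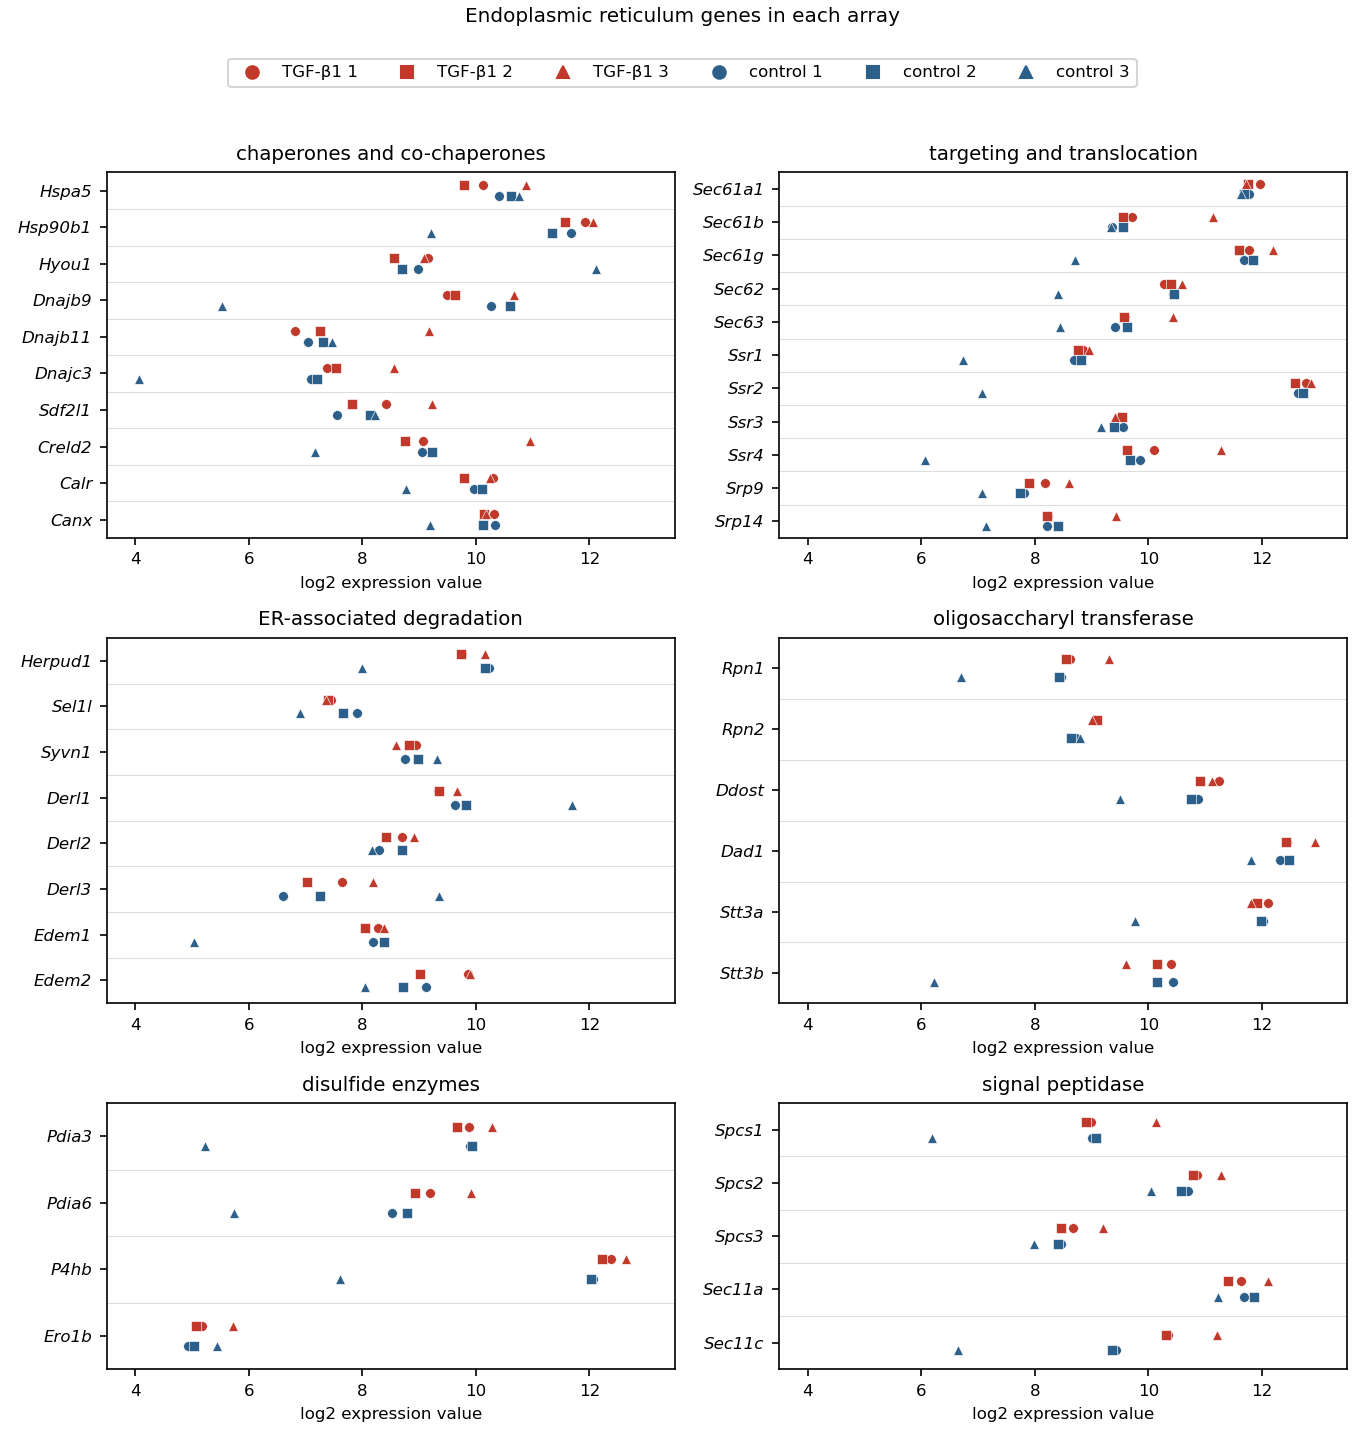
Log2 expression value of each of the 44 genes in each array, in 6 panels by role; red symbols are TGF-β1 arrays and blue symbols controls, and points that coincide hide one another. Control 3 (blue triangles) lies lowest of the 6 arrays for 35 of the 44 genes, and TGF-β1 3 (red triangles) highest for 29, while the other 4 arrays lie close together for most genes.

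Within the groups, TGF-β1 1 and 2 differed from each other by a median of 0.19 over the 44 genes (at most 0.85), and controls 1 and 2 by 0.17 (at most 0.66). The groups did not overlap, with TGF-β1 higher, in 11 of the 44 genes (25%), against 5.8% of all genes, and with TGF-β1 lower in 0 of the 44, against 5.78% of all genes. Control 3 was the lowest array in 35 of the 44 (79.5%), against 32.4% of all genes. It was lowest in 47.1% of the 13003 genes left by a filter on dim genes, and in 100% of the genes that every cell uses. Groups without overlap and with TGF-β1 higher made up 8.29% of those 13003 genes and 31.25% of the genes that every cell uses. Neither trait was therefore particular to this machinery. A comparison with control 3 left out was added after the data were seen. All TGF-β1 arrays then lay above both other controls in 12 of the 44, against 2499 of 19505 genes (12.8%). They lay below both in 1 of the 44 (Sel1l), against 2407 of 19505 genes (12.3%). The share above was thus still larger, and the share below smaller, than among all genes. For the 16 genes that every cell uses these counts were 5 and 2. Without weights, the median difference over the 44 genes was 0.69, against -0.14 over all genes.

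TGF-β1 3 lay apart from its group, in the direction opposite to control 3. Measured from the mean of controls 1 and 2, the median of the 44 genes was 0.11, -0.03 and 0.42 in TGF-β1 1 to 3 and -1.12 in control 3. Over all genes these medians were 0.02, -0.01, -0.01 and 0.45. TGF-β1 3 lay above both other TGF-β1 arrays in 33 of the 44 genes (75%), against 40.3% of all genes. It was the highest of the 6 arrays in 29 (65.9%), against 19.1% of all genes and 24.8% of the 13003 genes left by a filter on dim genes. Other lists, described below, came near this share: gland epithelium markers 62.5%, further folding enzymes 61.5%, acinar markers 58.8% and endothelium markers 57.1%. Nerve markers gave 50%, the genes that every cell uses 43.75% and smooth muscle markers 42.9%. Mesenchyme markers gave 23.1%, blood cell markers 20%, and cartilage and muscle markers 0%. These are values of 1 array, which no test of the groups addresses.

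The excess in TGF-β1 3 was uneven across the machinery. Its median over the mean of TGF-β1 1 and 2 was 1.01 for the chaperones, 0.62 for signal peptidase, 0.56 for the disulfide enzymes, 0.51 for targeting and translocation, 0.34 for degradation and -0.02 for oligosaccharyl transferase. It was over 1 in 9 of the 44 genes (20.5%), against 7.05% of all genes. This share was 43.75% for gland epithelium markers, 41.2% for acinar markers and 6.25% for the genes that every cell uses. It was 50% for nerve markers, 28.6% for endothelium and also for smooth muscle, and 23.1% for mesenchyme. Blood cell markers gave 20%, and cartilage and muscle markers 0%. Dnajb11 was at 6.82, 7.26 and 9.18 in TGF-β1 1 to 3 and at 7.04, 7.31 and 7.47 in the controls. Creld2 was at 9.06, 8.75 and 10.96 in TGF-β1 1 to 3 and at 9.06, 9.24 and 7.17 in the controls. In both genes TGF-β1 3 stood above every other array, and TGF-β1 1 and 2 lay near controls 1 and 2. The other 7 were Sec61b (1.49), Ssr4 (1.43), Srp14 (1.20), Spcs1 (1.19), Sdf2l1 (1.12), Dnajc3 (1.11) and Dnajb9 (1.11), whereas Stt3b lay lower in TGF-β1 3, by -0.66. The genes with ERSE or ERSE-II had a median excess of 0.73 (3 of 12 over 1) and those with neither one of 0.48 (6 of 26 over 1).

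**Figure D3:**
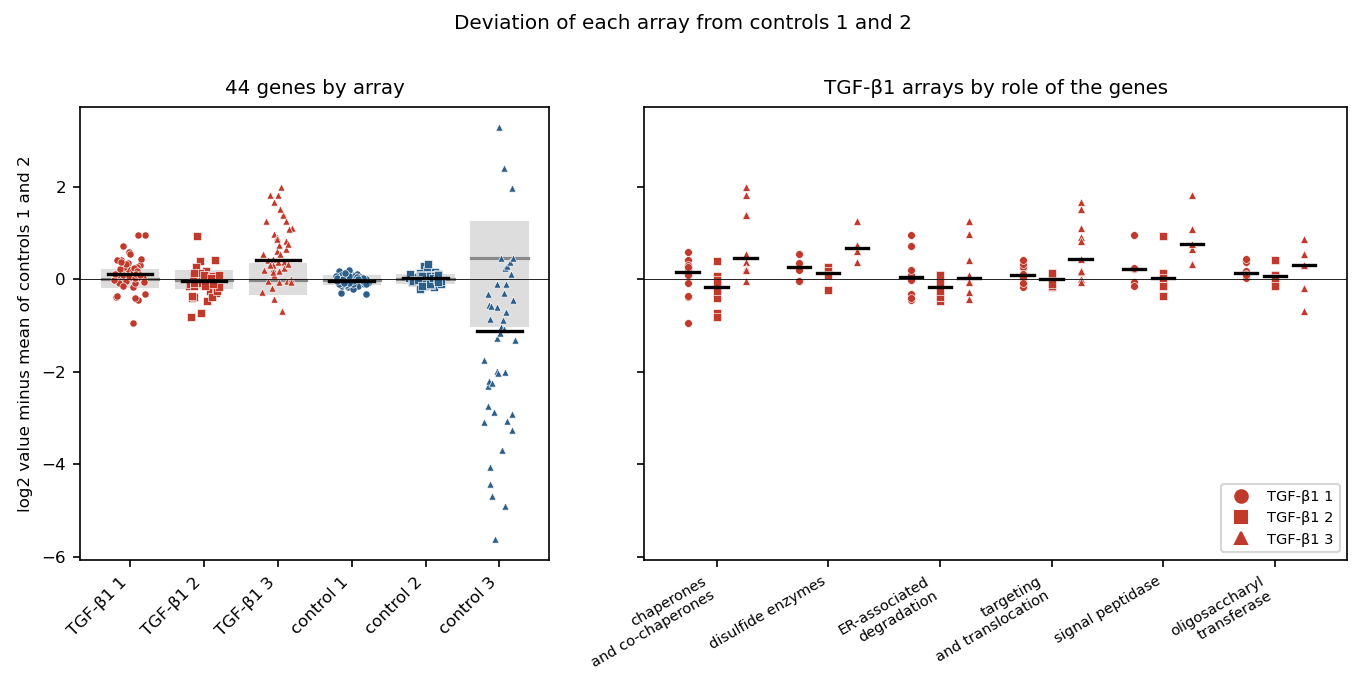
Log2 value of the 44 genes minus the mean of controls 1 and 2, on the left for each array and on the right for the TGF-β1 arrays by role; points are genes, black lines medians of the genes, and grey lines and boxes the median and interquartile range of all genes. The median is 0.42 in TGF-β1 3 and -1.12 in control 3, while TGF-β1 1 and 2 lie near 0.

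The genes that govern and surround this machinery showed larger changes in a few places. Of 19 measured sensors and transcription factors of the unfolded protein response, 2 rose, 3 fell and 14 did not pass. Creb3l4, a membrane-bound transcription factor of the Creb3 family, was at 9.81, 8.71 and 10.20 in TGF-β1 1 to 3 and at 7.06, 6.50 and 6.57 in controls 1 to 3. Bhlha15 (Mist1), a transcription factor of secretory cells, was at 9.20, 8.21 and 9.27 with TGF-β1 and at 6.33, 5.77 and 6.43 in the controls. Neither gene's groups overlapped: Creb3l4 rose by 2.82 ± 0.29 (adjusted p = 0.000347) and Bhlha15 by 2.95 ± 0.26 (adjusted p = 0.000189). In the fit of 4 arrays they rose by 2.48 (adjusted p = 0.0244) and 2.65 (adjusted p = 0.0195), and without weights they differed by 2.87 and 2.72, which did not pass (adjusted p = 0.776 for both). Bhlha15 also stands on the list of acinar markers.

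Ddit3, which encodes the pro-apoptotic factor CHOP, was at 9.44, 9.98 and 11.57 in TGF-β1 1 to 3 and at 11.26, 11.83 and 7.55 in controls 1 to 3. It fell by 1.91 on the log2 scale in the weighted fit (SE 0.30, adjusted p = 0.0037), with overlapping groups and TGF-β1 3 near the level of controls 1 and 2. Without weights its difference was 0.12, and without control 1 or control 2 it was 0.06 and 0.34. Trib3, a pseudokinase induced by CHOP, was at 8.24, 8.49 and 8.89 with TGF-β1 and at 10.03, 9.55 and 8.81 in the controls, and fell by 1.32 (SE 0.18, adjusted p = 0.0016), with -1.43 in the fit of 4 arrays (adjusted p = 0.0238) and -0.92 without weights. Only control 3 of its controls reached into the range of the TGF-β1 arrays.

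Atf6, the sensor that is cut to become a transcription factor, was at 10.26, 10.30 and 10.45 in TGF-β1 1 to 3 and at 11.02, 10.89 and 8.14 in controls 1 to 3. It fell by 0.63 (SE 0.16, adjusted p = 0.0349), but did not pass in the fit of 4 arrays (adjusted p = 0.0606), and its unweighted difference was 0.31. The sensors Ern1 (Ire1) and Eif2ak3 (Perk) differed by -0.20 and -0.03, and Atf4, which acts after Perk, by -0.51 (adjusted p = 0.0765; 0.32 without weights). Xbp1, the factor that Ire1 activates, was at 11.28, 11.50 and 11.67 with TGF-β1 and at 10.78, 10.83 and 6.84 in the controls. Its groups did not overlap and it differed by 0.58 ± 0.19, which did not pass (adjusted p = 0.0927), by 0.58 in the fit of 4 arrays and by 2.00 without weights. The array measures the level of a transcript and not the splicing of Xbp1 by Ire1 or the cutting of Atf6.

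**Figure D4:**
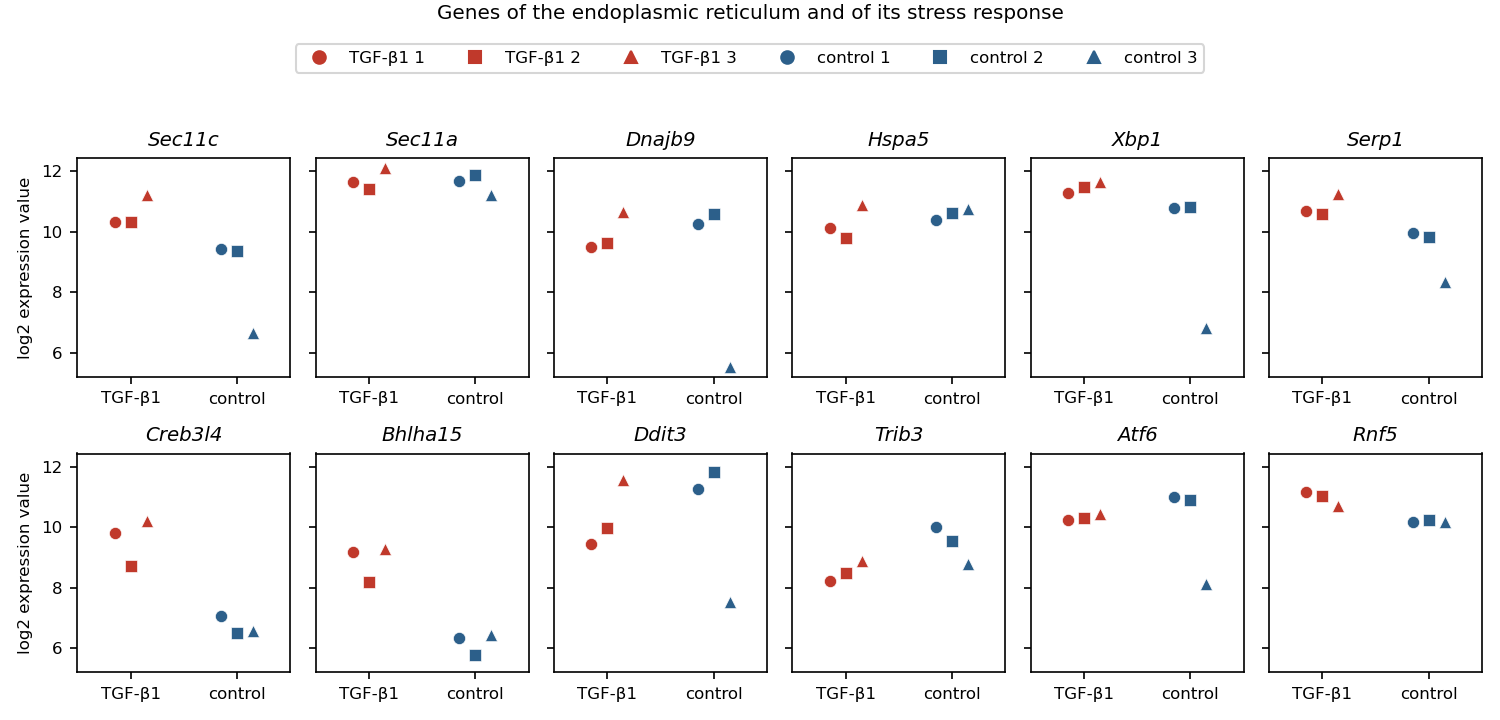
Log2 expression values of 12 genes in each array, with the TGF-β1 arrays (red) left of the controls (blue) and symbols for replicates 1 to 3. Sec11c, Serp1, Creb3l4, Bhlha15, Xbp1 and Rnf5 show no overlap between the groups, with Xbp1 not passing. Control 3 lies far below controls 1 and 2 for Dnajb9, Ddit3 and Atf6, and also below them for Xbp1, Sec11c and Serp1.

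Among 21 further genes of targeting and translocation 1 rose and 0 fell. It was Serp1, a small protein bound to the translocon that is induced by stress, at 10.69, 10.58 and 11.25 in TGF-β1 1 to 3 and at 9.98, 9.82 and 8.33 in controls 1 to 3. Its groups did not overlap, and it rose by 0.84 ± 0.16 (adjusted p = 0.0083; 0.74 and adjusted p = 0.0544 in the fit of 4 arrays).

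Of 22 further genes of N-glycosylation and glycan trimming, 1 rose and 1 fell. Dpagt1, which begins the synthesis of the sugar precursor, rose by 0.64 ± 0.15 (adjusted p = 0.0231; 0.112 in the fit of 4 arrays). Uggt2, of the family of glucosyltransferases that mark misfolded glycoproteins, was at 6.62, 7.04 and 8.20 in TGF-β1 1 to 3 and at 7.96, 7.86 and 6.06 in controls 1 to 3. It fell by 1.02 (SE 0.22, adjusted p = 0.0167), with groups that overlapped through TGF-β1 3 and control 3, and with an unweighted difference near 0, at -0.0050.

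None of 26 further folding enzymes and chaperones passed in limma (8 at an unadjusted p under 0.05, and 0 in the fit of 4 arrays). Ero1a, the oxidase related to Ero1b, had the smallest p, with a difference of -0.58 ± 0.17 (adjusted p = 0.0641; 0.35 without weights). In 23 of these 26 genes TGF-β1 3 also lay above both other TGF-β1 arrays, by a median of 0.59 over their mean.

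Of 20 further degradation genes 2 rose and 0 fell. Rnf5, a ubiquitin ligase of the membrane, was at 11.16, 11.03 and 10.70 in TGF-β1 1 to 3 and at 10.17, 10.25 and 10.18 in controls 1 to 3, tight groups without overlap. It rose by 0.87 ± 0.14 (adjusted p = 0.0040; 0.0326 in the fit of 4 arrays). Sel1l3, a relative of Sel1l, rose by 1.26 ± 0.22 (adjusted p = 0.0057), although TGF-β1 3, at 6.26, lay below controls 1 and 3, at 6.52 and 6.70. Of 32 genes of transport from the endoplasmic reticulum to the Golgi, 1 rose and 0 fell: Sec23b, a coat protein of the transport vesicles, by 0.68 ± 0.15 (adjusted p = 0.0190; 0.121 in the fit of 4 arrays). Over the 6 lists 7 of 140 measured genes rose and 4 fell (7.86% called, against 6.88% of all genes), with a median of 0.01. These lists and the set of 44 share no gene.

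The calls of these 11 other pathway genes also depended on which arrays entered the fit, with the weights estimated anew each time. Without control 3, Creb3l4, Bhlha15, Ddit3, Trib3, Atf6, Serp1 and Rnf5 passed, and Dpagt1, Uggt2, Sel1l3 and Sec23b did not (adjusted p = 0.0663, 0.0612, 0.0511 and 0.0837). Without TGF-β1 3, Bhlha15, Trib3 and Rnf5 passed, and without TGF-β1 2, Creb3l4 and Bhlha15. None of the 11 passed without TGF-β1 1 (lowest adjusted p = 0.105, Bhlha15), or without control 1 or control 2, which leaves control 3 as 1 of 2 controls (lowest adjusted p = 0.939 and 0.979). With 1 array left out, Creb3l4 ran between 2.21 and 2.96, Bhlha15 between 2.37 and 2.91 and Rnf5 between 0.70 and 0.93. Uggt2 ran between -1.10 without TGF-β1 3 and -0.11 without control 1, Sel1l3 between 0.25 without TGF-β1 1 and 1.18 without control 3, and Serp1 between 0.68 without TGF-β1 3 and 1.61 without control 1. Dpagt1 was at 1.25 without control 1 and Trib3 at -0.82.

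Markers of cell types were read from the same arrays. Of 17 measured acinar and secretory markers 13 rose and 0 fell, with a median difference of 2.18. Measured from the mean of controls 1 and 2, the median of the list was 2.09, 2.16 and 2.69 in TGF-β1 1 to 3 and 0.39 in control 3. Of 16 gland epithelium markers 4 rose and 0 fell (array medians 0.48, 0.47 and 0.93 in TGF-β1 1 to 3 and -3.02 in control 3), and of 13 mesenchyme markers 0 rose and 3 fell (-0.25, -0.59 and -0.20 in TGF-β1 1 to 3 and -2.25 in control 3). Smooth muscle, nerve and cartilage markers gave 2 rising genes each (of 7, 4 and 5), endothelium 1 falling gene of 7, and blood cells (5) and muscle (6) none in either direction. These calls are of the weighted fit, in which 3.45% of all genes rose and 3.44% fell. In the fit of 4 arrays 11 acinar, 2 gland epithelium and 1 cartilage marker rose. There 2 mesenchyme markers and 1 endothelium marker fell, and no smooth muscle or nerve marker passed. Without weights no marker passed. For the 44 genes the corresponding array medians were 0.11, -0.03 and 0.42 in TGF-β1 1 to 3, with -1.12 in control 3. The part of these markers in the values of Sec11c, Dnajb9 and the rest of the machinery was not tested.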

How the data were processed

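The deposited table gives log2 values, 1 per probe set. Per the submitters' processing notes the authors used RMA, with no version stated. RMA subtracts background, aligns the arrays and fits 1 value per probe set. The values were used as deposited, for 3 TGF-β1 arrays and 3 controls grouped from their labels. Total RNA of 6 µg was labelled with biotin, per the labels' protocols. Arrays carry no read depth, so their number limits the precision. Of 22206 probe sets 19572 had 1 gene symbol in the platform annotation, 2634 were unnamed here, and the probe set of highest mean stood for a gene, giving 19505 genes; each of the 44 genes described had 1.

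The comparison used limma (version 3.58.1, R 4.3.3) with lmFit and eBayes, two-sided, the group as the sole term, on all 6 arrays and with array weights (arrayWeights, REML), because control 3 and TGF-β1 3 were known to stand apart. Adjusted p-values are Benjamini-Hochberg over the 19505 genes, and the threshold is 0.05. The weight estimation did not reach its convergence tolerance with up to 5000 iterations, giving the same weights as the default 50. Weights are treated as known, so p-values are too small. Simulated data were also put through these fits. No outcome of that trial is given here, and it does not vouch for the weights of control 3 and TGF-β1 3. The 46 genes and all lists were chosen with earlier results of these data known, and lists were not tested as sets.

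Every measured gene of the 46 may be named, with full values for those that passed, the 5 of smallest p and neighbours in function. From each further list up to 3 genes per direction that passed were named, or the 1 of smallest p, plus Xbp1, Atf6, Ern1, Eif2ak3, Atf4, Ddit3, Bhlha15 and Creb3l4. Other members with full values were added after their values were seen, to show how the arrays differ. Promoter windows come from RefSeq (GRCm38.p6), matched by gene symbol. Alternatives were no weights, other weights, arrays left out, quantile normalization, median centring, a filter on the lowest 33.3% of genes, the mean of a gene's probe sets, another prior, a replicate block and a threshold of 0.01.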

Additional observations from a re-analysis of the deposited data

How the results depend on the processing

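The counts of passing genes depended on how the arrays were weighted, and for every change given here the cause was not tested. Against 672 higher and 670 lower among all genes, 1 higher and 1 lower among the 44, and 7 higher and 4 lower among the other pathway genes, the unweighted fit gave 0 in each, with control 3 and without it. The fit of 4 arrays gave 223 higher and 282 lower over all genes and 4 higher among the other pathway genes. Quantile normalization gave 224 higher and 226 lower, 0 lower of the 44, and 4 higher and 2 lower other pathway genes. Median centring gave 132 higher and 151 lower, 0 and 0 of the 44, and 3 and 1. The filter on dim genes kept 13003 genes and left out Ero1b. It gave 2166 higher and 2183 lower, 7 and 4 of the remaining 43, and 20 and 22. The share of the 43 that passed was thus smaller than that of the 13003 genes. In that fit control 2 far outweighed the other controls, so the control side rested mainly on that array. An adjusted p under 0.01 left 262 higher and 276 lower, 0 lower of the 44 and 2 lower other pathway genes. Gene-by-gene weights gave 0 lower of the 44.

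With 1 array left out and the weights estimated anew, higher counts ran between 0 and 245 over all genes. They ran between 0 and 1 of the 44, and between 0 and 4 of the other pathway genes. Lower counts ran between 0 and 299 over all genes, stayed at 0 of the 44, and ran between 0 and 3 of the other pathway genes. The median difference of the 44 genes, 0.07, was 0.69 without weights and 0.081 to 0.69 with 1 array left out. Among genes that passed, signs turned for Dnajb9 (1.13 unweighted, -0.84 to 1.70 with 1 array left out), Ddit3 (0.12, and -1.81 to 0.34) and Atf6 (0.31, and -0.69 to 0.76). Of the 60 named genes, passing or not, 17 changed sign without weights (13 of the 44, among them Herpud1, Hyou1 and Creld2), and 3 to 18 (2 to 15 of the 44) with 1 array left out. Of 17 alternative fits, Sec11c passed in 9 (0.94 to 2.38) and Dnajb9 in 6 (-1.03 to 1.70). These include default iterations, with identical weights, and the mean of a gene's probe sets, of which each has 1.

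Deviations of same-numbered arrays from their group means correlated at -0.07, -0.01 and -0.05. The control mean includes the control that stood apart, which bears on the deviations of all controls. These values therefore cannot decide whether replicate numbers pair the samples. A fit with the replicate number as a block gave 1221 higher and 1281 lower genes, 2 lower of the 44 (Dnajb9, and Hspa5 at -0.65, adjusted p = 0.0073), Sec11c still higher, and 12 lower other pathway genes.

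No measure of signal over background was used, so how far dim genes lie above it is unknown, and with control 3 and TGF-β1 3 standing apart the precision rests largely on the other 4 arrays.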
